A study of Mus musculus with 12 samples.

Results

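The liver makes most of the circulating proteins of coagulation and complement, and the mRNAs of 41 of them were followed here in mouse liver with and without an active AMPK transgene. The genes were chosen by symbol, 24 for coagulation and fibrinolysis and 17 for complement, and all 41 were found among the 24453 genes of the table and were among the 12614 genes tested. In coagulation, a chain of serine proteases ends in thrombin, which cuts fibrinogen into fibrin. Inhibitors of the serpin family and the protein C system restrain the chain, and plasmin dissolves the clot. In complement, the classical, lectin and alternative pathways meet at C3, whose cleavage leads to C5 and to the membrane attack complex built from C5b to C9. Hepatocytes secrete nearly all of these proteins, and fibrinogen is a known acute phase protein.

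Livers came from C57Bl/6J mice on a high fat diet (45% of calories from fat) for 8 weeks, and the study asked what AMPK activation in the liver does in fat-fed mice; the labels give no age or sex. All groups carried 2 copies each of the alleles ColA-AMPKa1(312), a transgene of the AMPK α1 subunit, and R26-rtTA, a doxycycline-dependent activator. The L-iAMPK groups also carried Albumin-Cre, a recombinase driven by the albumin promoter of hepatocytes. The groups named HFD+dox received doxycycline (dox), and only L-iAMPK HFD+dox is labelled as having active AMPK. Each genotype was studied on HFD and on HFD+dox, and each of the 4 groups had 3 libraries, with 13569437 to 20696899 recovered reads per library. Prkaa1, the gene of AMPK α1, measured 946.5 to 1265 FPKM in L-iAMPK HFD+dox and 2.62 to 4.12 in the other 9 libraries. Levels are FPKM, reads scaled to transcript length and library depth, given per library in the order of replicates 1, 2 and 3. Differences are log2 differences ± SE of log2(FPKM + 0.5), a scale that compresses changes at low levels. A gene rose, fell or passed where its limma adjusted p over all 12614 genes was under 0.05. Calls were repeated under 23 alternatives (other scalings, filters, pseudocounts and fits, edgeR, and each library left out), and only alternatives that end a call are given beside it, with their adjusted p in brackets. The fit with the replicate number as a block is given apart, since the numbers did not clearly pair the libraries. No label states that replicates were separate animals, so each p-value reflects the spread of these libraries, which may be technical.

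With doxycycline in L-iAMPK livers, more genes of both systems rose than fell. Of the 24 coagulation genes, 9 rose and 1 fell, and of the 17 complement genes, 5 rose and 0 fell, against 4.76% of all tested genes higher and 21.1% lower (25.8% in either direction). The 14 genes that rose were Fga, Fgb, Fgg, F2, Klkb1, Serpinc1, Serpind1, Plg and Cpb2 of coagulation and C3, Cfb, Masp2, Mbl2 and Serping1 of complement, and the gene that fell was Pros1. Masp2 rose for the transcript given in FPKM but not for that of the read counts. The median log2 difference was 0.25 over the coagulation genes, 0.28 over the complement genes and -0.13 over all genes tested. On the deposited scale the typical gene thus lay at -0.13, and the cause was not tested. After median-ratio scaling, which by design brings the typical gene near 0, the 3 medians were 0.42, 0.45 and 0.02. After quantile normalization they were 0.19, 0.26 and 0.03. The coagulation genes ranged from -0.68 to 1.13 and the complement genes from -0.46 to 1.38. In all, 34 of the 41 differences were above 0, against 3957 of the 12614 genes tested. Without L-iAMPK HFD replicate 1 or 2, 4 or 5 coagulation genes rose in place of 9. All genes called in either direction numbered 1874 without its replicate 1, in place of 3259. Complement genes that rose numbered 3 without L-iAMPK HFD replicate 2, 3 without replicate 3 of L-iAMPK HFD+dox and 8 after median-ratio scaling. With array weights, 14 coagulation and 10 complement genes rose and 2 coagulation genes fell, and 2 and 3 coagulation genes fell without replicate 3 of L-iAMPK HFD and without that of L-iAMPK HFD+dox. Median-ratio scaling also raised single differences by over 1.5 times, to 0.45 for F2, 0.48 for Serpinc1, 0.51 for Serpind1, 0.51 for Cpb2 and 0.51 for Cfb.

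Against iAMPK livers, also on doxycycline, the direction was mixed. There 3 coagulation genes were higher (Fga, Fgb and Fgg) and 4 lower (F5, F11, Pros1 and Serpinf2), and 2 complement genes were higher (C2 and Masp2) and 2 lower (C4bp and C8a), against 4.61% of all genes higher and 10.3% lower (14.9% in either direction). The median log2 difference was -0.02 for coagulation, 0.01 for complement and -0.08 for all genes. The 3 medians were 0.09, 0.11 and 0.006 after median-ratio scaling and 0.04, 0.09 and 0.03 after quantile normalization. The lower coagulation genes numbered 2 without replicate 1 or 2 of L-iAMPK HFD+dox or replicate 3 of iAMPK HFD+dox. No complement gene was higher without replicate 2 of iAMPK HFD+dox, and 1 was without its replicate 3 or without replicate 1 or 3 of L-iAMPK HFD+dox. All genes called in either direction numbered 908 without replicate 2 of iAMPK HFD+dox, in place of 1882. C8a was called lower under all alternatives run and C4bp was not. Both comparisons use the same L-iAMPK HFD+dox libraries. Of the 14 genes that rose with doxycycline in L-iAMPK livers, 4 were also higher against iAMPK HFD+dox: Fga, Fgb, Fgg and Masp2. For all 14, these 4 and the other 10, the mean of L-iAMPK HFD lay below that of iAMPK HFD. On the log2 scale the same held for 4284 of the 12614 genes tested. All 3 L-iAMPK HFD+dox libraries lay above the other 9 libraries for 7 genes (Fga, Fgb, Fgg, F2, Serpinc1, Masp2 and Mbl2), as for 4.19% of all genes tested, and below them for Pros1, as for 12.2%.

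**Figure D1:**
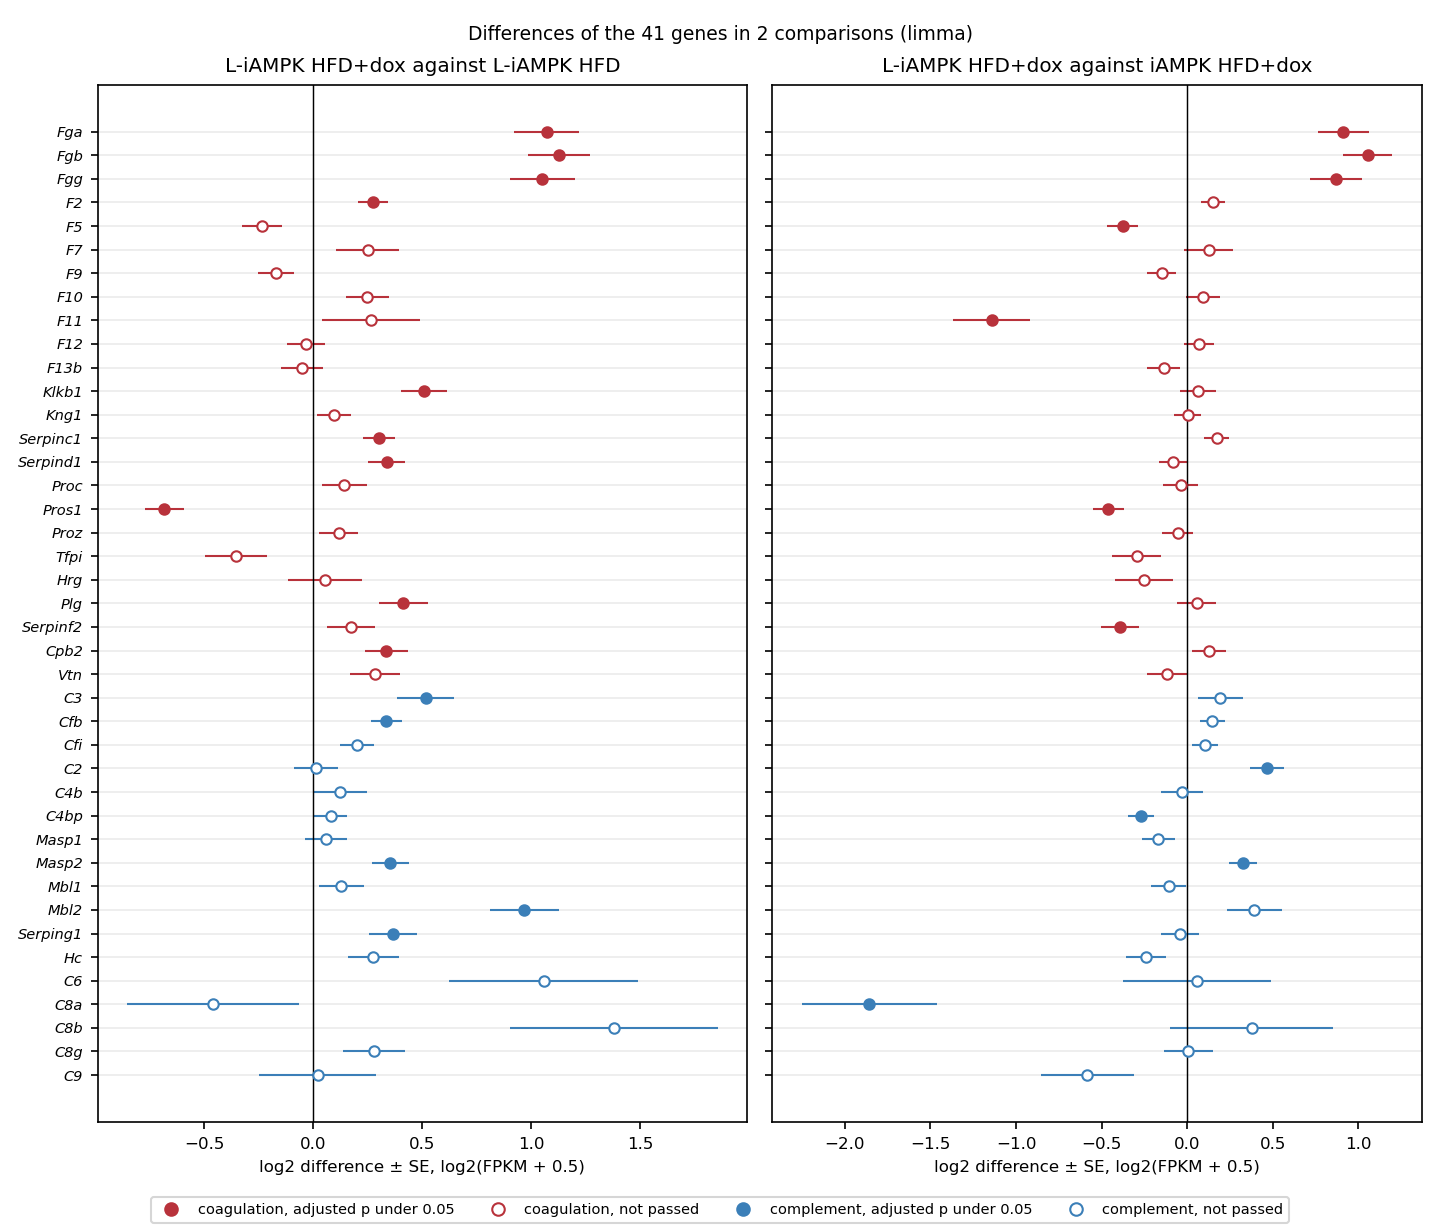
Log2 differences ± SE (x axis, log2(FPKM + 0.5)) of the 41 genes (y axis, ordered by role) for L-iAMPK HFD+dox against L-iAMPK HFD (left) and against iAMPK HFD+dox (right); filled points passed an adjusted p of 0.05 in limma. The 3 fibrinogen chains lie between 0.87 and 1.13 in both panels, Pros1 lies below 0 in both, and most other coagulation genes lie between -0.5 and 0.5.

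Summed levels set the systems side by side. The 3 fibrinogen chains together measured 5095 ± 366 FPKM in iAMPK HFD, 5179.7 ± 1216 in iAMPK HFD+dox, 4653 ± 279 in L-iAMPK HFD and 9906 ± 821 in L-iAMPK HFD+dox (mean ± SD, n = 3). The other 21 coagulation genes summed to 6430.4 ± 351, 6288 ± 371, 5347 ± 529 and 6212 ± 134 FPKM in the same order. The 17 complement genes summed to 4283 ± 276, 4324 ± 229.9, 3422 ± 294 and 4439 ± 348 FPKM. The sum of the fibrinogen chains was highest in L-iAMPK HFD+dox with no overlap, whereas the other 2 sums in L-iAMPK HFD+dox overlapped those of both iAMPK groups, and both were lowest in L-iAMPK HFD. The highest complement sum of the 12 libraries was in L-iAMPK HFD+dox, at 4818 FPKM. As a share of all FPKM, the 24 coagulation genes took 2.44% ± 0.129 in L-iAMPK HFD and 3.83% ± 0.192 in L-iAMPK HFD+dox, and the complement genes took 0.834% ± 0.0531 and 1.06% ± 0.0836. In bulk tissue, a change in the number of cells of a type and a change in RNA per cell cannot be told apart.

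**Figure D2:**
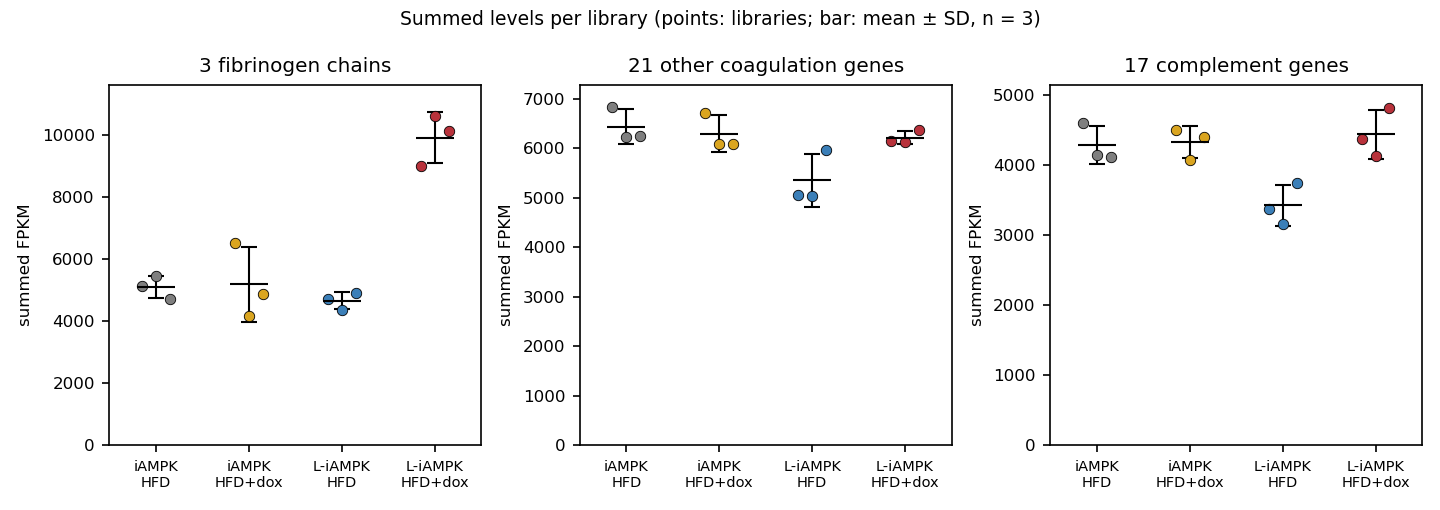
Summed FPKM per library (y axis) of the fibrinogen chains, the other coagulation genes and the complement genes in the 4 groups (x axis); points are libraries and bars are mean ± SD, n = 3. The fibrinogen sums of L-iAMPK HFD+dox, 8996 to 10589.9, lie above the other 9 libraries, while its other sums overlap the iAMPK groups.

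Fibrinogen rose most among the coagulation genes. It is a hexamer of paired Aα, Bβ and γ chains, encoded by Fga, Fgb and Fgg, and thrombin removes short peptides from its Aα and Bβ chains to make fibrin. The 3 genes are neighbours on chromosome 3 (mm10), Fgg at chr3:83007896-83015049, Fga at chr3:83026153-83033617 and Fgb at chr3:83042305-83049790, with 11.1 kb between Fgg and Fga, 8.7 kb between Fga and Fgb, and no other gene of the table between them. Fgb lies on the minus strand and the others on the plus strand.

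Fga measured 1476, 1627 and 1346 FPKM in iAMPK HFD, 1843, 1172 and 1388 in iAMPK HFD+dox, then 1321, 1227 and 1331 in L-iAMPK HFD, then 2430.3, 2902 and 2838 in L-iAMPK HFD+dox. Each library of L-iAMPK HFD+dox lay above all other libraries, while L-iAMPK HFD lay just below iAMPK HFD and overlapped iAMPK HFD+dox. The difference to L-iAMPK HFD was 1.07 ± 0.15 (limma adjusted p = 0.000981), a 2.10-fold increase, and that to iAMPK HFD+dox was 0.91 ± 0.15 (limma adjusted p = 0.00313). Fgb measured 2035, 2093 and 1899.6 FPKM in iAMPK HFD, 2578, 1655 and 1899.6 in iAMPK HFD+dox, then 1959, 1767 and 2019 in L-iAMPK HFD, then 3851, 4479 and 4222 in L-iAMPK HFD+dox. L-iAMPK HFD+dox lay above all other libraries, and the other 3 groups overlapped. Fgb rose by 1.13 ± 0.14 (limma adjusted p = 0.000627) with doxycycline in L-iAMPK livers and was higher by 1.06 ± 0.14 (limma adjusted p = 0.00121) than in iAMPK livers on doxycycline. Fgg measured 1598, 1733 and 1475 FPKM in iAMPK HFD, 2100.5, 1323 and 1579 in iAMPK HFD+dox, then 1441, 1353 and 1541 in L-iAMPK HFD, then 2715, 3208 and 3072 in L-iAMPK HFD+dox. Again every L-iAMPK HFD+dox library was above the other 9, and iAMPK HFD+dox replicate 1 was the highest of the 9 for all 3 chains. Fgg rose by 1.05 ± 0.15 (limma adjusted p = 0.00111) and was higher by 0.87 ± 0.15 (limma adjusted p = 0.00405) in the 2 comparisons. After quantile normalization the increases with doxycycline in L-iAMPK livers were 0.65 for Fga, 0.76 for Fgb and 0.66 for Fgg, and all passed. The response to doxycycline also differed between genotypes, by 1.11 ± 0.21 (limma adjusted p = 0.0126) for Fga, 1.13 ± 0.20 (limma adjusted p = 0.0106) for Fgb and 1.02 ± 0.21 (limma adjusted p = 0.0161) for Fgg. The last did not pass in limma after quantile normalization (adjusted p = 0.0634), where the difference was 0.58, and that of Fga was 0.66. In FPKM, Fgb lay above Fgg and Fgg above Fga in all 12 libraries. The ratio of Fgb to Fga was 1.29 to 1.52 outside L-iAMPK HFD+dox and 1.49 to 1.58 in it, and that of Fgg to Fga was 1.07 to 1.16 and 1.08 to 1.12.

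**Figure D3:**
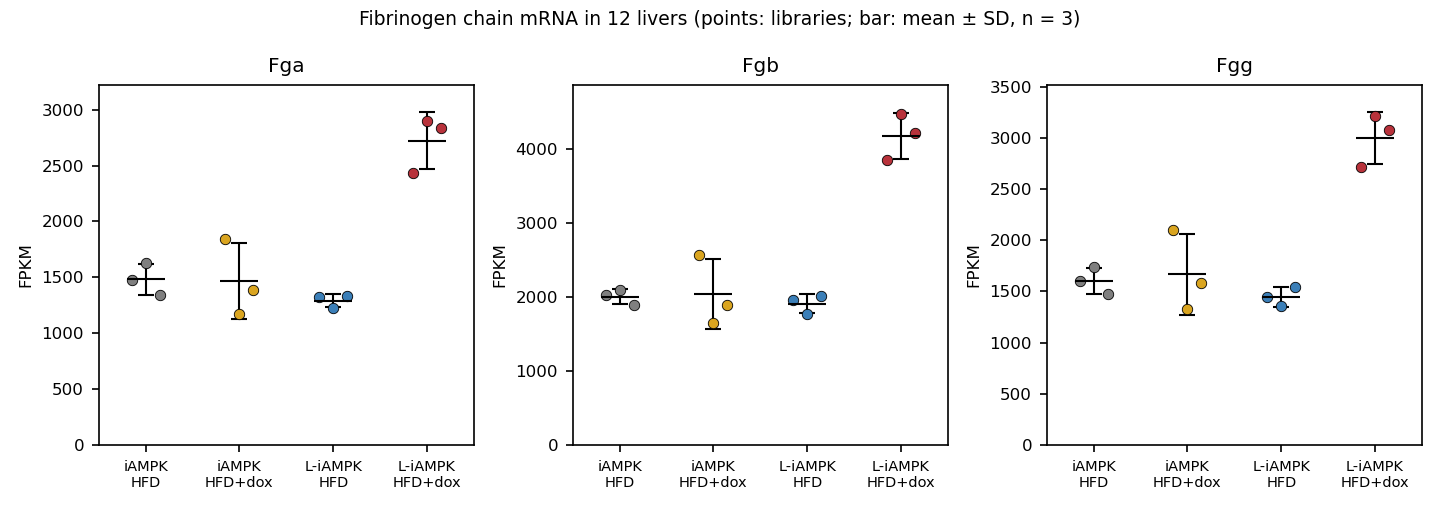
FPKM (y axis) of Fga, Fgb and Fgg in each library of the 4 groups (x axis); points are libraries and bars are mean ± SD, n = 3. The L-iAMPK HFD+dox libraries lie between 2430 and 4479 FPKM over the 3 genes, and for each gene they lie above the other 9.

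Promoter sequences from RefSeq (GRCm38.p6) are shown for the 3 chains, which rose together, and for Pros1 and C8a. Both Pros1 and C8a were lower in L-iAMPK HFD+dox than in iAMPK HFD+dox. Each sequence is the 250 bases before the annotated start, and the capitals mark matches on either strand to short motifs. The motifs are GTTAAT (HNF1), TTGNNNAA (C/EBP), TTCNNNGAA (STAT), CTGGGA (IL-6 type II element), TATAAA (bound by TBP) and a direct repeat of AGGTCA spaced by 1 base. The sequences are, in order, at chr3:83007474-83007723 (plus strand), chr3:83025903-83026152 (plus), chr3:83049864-83050113 (minus), chr16:62854057-62854306 (plus) and chr4:104876399-104876648 (minus).
Fgg: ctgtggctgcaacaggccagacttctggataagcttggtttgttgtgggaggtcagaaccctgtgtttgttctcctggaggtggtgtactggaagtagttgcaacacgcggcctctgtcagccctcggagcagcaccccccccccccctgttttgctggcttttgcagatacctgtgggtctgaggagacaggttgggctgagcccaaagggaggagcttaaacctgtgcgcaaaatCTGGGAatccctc
Fga: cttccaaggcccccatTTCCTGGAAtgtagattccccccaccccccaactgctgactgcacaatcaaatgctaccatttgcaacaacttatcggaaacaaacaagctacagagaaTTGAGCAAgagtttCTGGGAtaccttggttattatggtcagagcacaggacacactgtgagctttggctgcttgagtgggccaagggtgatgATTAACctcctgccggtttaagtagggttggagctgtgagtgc
Fgb: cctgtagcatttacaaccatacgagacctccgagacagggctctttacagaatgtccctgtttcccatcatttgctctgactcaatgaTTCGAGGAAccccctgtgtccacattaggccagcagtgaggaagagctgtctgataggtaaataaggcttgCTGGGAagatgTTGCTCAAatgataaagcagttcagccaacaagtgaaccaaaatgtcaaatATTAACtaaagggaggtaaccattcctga
Pros1: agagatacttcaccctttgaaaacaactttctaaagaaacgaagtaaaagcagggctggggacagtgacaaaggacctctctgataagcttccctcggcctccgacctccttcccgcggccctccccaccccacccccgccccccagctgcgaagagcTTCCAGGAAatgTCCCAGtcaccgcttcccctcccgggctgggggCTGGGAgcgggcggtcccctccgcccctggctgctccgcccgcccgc
C8a: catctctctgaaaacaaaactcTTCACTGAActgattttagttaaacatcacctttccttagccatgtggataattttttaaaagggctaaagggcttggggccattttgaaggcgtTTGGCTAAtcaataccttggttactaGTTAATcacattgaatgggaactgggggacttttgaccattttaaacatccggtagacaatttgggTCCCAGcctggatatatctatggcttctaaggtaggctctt

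The Fga and Fgb windows each held an HNF1, a C/EBP, a STAT and an IL-6 type II match, and the Fgg window held only the IL-6 type II letters. In Fga the HNF1 match began 43 bases before the start and in Fgb 29 bases before it, and the C/EBP match of each of these windows was found on both strands. Pros1 held 1 STAT and 2 IL-6 type II matches, and C8a held 1 match to each of the HNF1, C/EBP, STAT and IL-6 type II motifs. No match overlapped a match to another motif. The RefSeq start lies 172 bases upstream of the deposited transcript's start for Fgg and 73 bases upstream for Fgb, and the starts are the same for the others. Of the 41 genes, 32 had a window, with 34 windows in all. The HNF1 letters were in 5 of 22 coagulation windows (F13b, Fga, Fgb, Proz and Vtn) and 4 of 12 complement windows (C4bp, C8a, C8b and Hc), against 6.43% of 32851 windows in the table. The STAT letters were in 4 and 2 windows against 7.02%, the IL-6 type II letters in 9 and 4 against 27.0%, the C/EBP letters in 12 and 5 against 33.3%, the TBP letters in 3 and 1 against 12.4%, and the direct repeat in none against 0.0335%. These are matches of letters and not measured binding.

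Among the procoagulant proteases and cofactors, prothrombin and plasma prekallikrein rose with doxycycline in L-iAMPK livers. F2, which encodes prothrombin (chr2:91625320-91636457), measured 779, 761 and 778 FPKM in iAMPK HFD, 793, 748 and 746 in iAMPK HFD+dox, then 672, 689 and 742 in L-iAMPK HFD, then 840.1, 851 and 848 in L-iAMPK HFD+dox. The L-iAMPK HFD+dox libraries lay close together and above all others, and those of L-iAMPK HFD were the lowest. F2 rose by 0.27 ± 0.07 (limma adjusted p = 0.0160) and differed by 0.15 ± 0.07 (limma adjusted p = 0.160) from iAMPK HFD+dox. Its call ended after quantile normalization (adjusted p = 0.820), with only the compared libraries fitted (0.0647) and without replicates 1 and 2 of L-iAMPK HFD (0.0632 and 0.0565), and its difference after quantile normalization was 0.02. Klkb1, which encodes prekallikrein of the contact system (chr8:45269451-45294835), measured 92.6, 73.6 and 75.2 FPKM in iAMPK HFD, 86.6, 74.3 and 69.6 in iAMPK HFD+dox, then 52.6, 55.0 and 60.7 in L-iAMPK HFD, then 80.3, 76.4 and 83.3 in L-iAMPK HFD+dox. L-iAMPK HFD was below every other library, and L-iAMPK HFD+dox overlapped both iAMPK groups. Klkb1 rose by 0.51 ± 0.11 (limma adjusted p = 0.00698), and its response differed between genotypes by 0.57 ± 0.15 (limma adjusted p = 0.0322). The latter did not pass in edgeR (adjusted p = 0.0535), without replicate 1 of iAMPK HFD (0.0673), without replicates 2 and 3 of iAMPK HFD+dox (0.0774 and 0.0737), without replicates 1 and 2 of L-iAMPK HFD (0.0808 and 0.0742) and without replicates 1, 2 and 3 of L-iAMPK HFD+dox (0.0643, 0.0505 and 0.0688). F5, which encodes the cofactor of factor Xa (chr1:164151835-164220277), measured 152, 135 and 142 FPKM in iAMPK HFD, 145, 147 and 143 in iAMPK HFD+dox, then 133, 144 and 119 in L-iAMPK HFD, then 103, 108 and 125 in L-iAMPK HFD+dox. Its 2 lowest libraries were in L-iAMPK HFD+dox, which overlapped L-iAMPK HFD and lay below iAMPK HFD+dox. F5 was lower, at -0.38 ± 0.09 (limma adjusted p = 0.0200), than in iAMPK HFD+dox and differed by -0.24 ± 0.09 (limma adjusted p = 0.0764) from L-iAMPK HFD. The first call ended after median-ratio scaling (adjusted p = 0.0794), after quantile normalization (0.128), in edgeR (0.180), without replicates 2 and 3 of iAMPK HFD+dox (0.0700 and 0.0512) and without replicates 1 and 2 of L-iAMPK HFD+dox (0.0765 and 0.0650). Another gene model overlaps F5 by 383 bases on the opposite strand.

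F11, which encodes factor XI, the protease that activates factor IX (chr8:45241168-45262031, 7.4 kb from its neighbour Klkb1), followed genotype. It measured 56.2, 44.7 and 36.5 FPKM in iAMPK HFD, 49.0, 28.8 and 29.0 in iAMPK HFD+dox, then 10.3, 14.5 and 13.6 in L-iAMPK HFD, then 16.1, 13.3 and 16.9 in L-iAMPK HFD+dox. All 6 L-iAMPK libraries lay below all 6 iAMPK libraries, and the 2 L-iAMPK groups overlapped. F11 was lower in L-iAMPK livers on doxycycline, at -1.14 ± 0.22 (limma adjusted p = 0.00873), and in those without it, at -1.79 ± 0.22 (limma adjusted p = 0.00540), and doxycycline in L-iAMPK livers gave 0.26 ± 0.22 (limma adjusted p = 0.407). The ratio of F11 to its neighbour Klkb1 was 0.387 to 0.607 in the iAMPK libraries and 0.173 to 0.263 in the L-iAMPK libraries. The other genes of this role did not pass in either comparison. F7 (factor VII, the partner of tissue factor) differed by 0.25 ± 0.14 with doxycycline in L-iAMPK livers, F9 (factor IX) by -0.17 ± 0.08, F10 (factor X) by 0.25 ± 0.10, F12 (factor XII of the contact system) by -0.03 ± 0.09, F13b (the carrier subunit of factor XIII) by -0.05 ± 0.10 and Kng1 (high molecular weight kininogen) by 0.09 ± 0.08. Their group means ran from 33.7 FPKM for F7 to 563 for Kng1. Kng1 and its near copy Kng2 may share reads, so its level is uncertain.

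Among the anticoagulants, 2 serpins that inhibit thrombin rose with doxycycline in L-iAMPK livers and protein S fell. Pros1 encodes protein S, the cofactor of activated protein C (chr16:62854307-62929342). It measured 18.2, 17.1 and 17.3 FPKM in iAMPK HFD, 15.8, 18.4 and 19.9 in iAMPK HFD+dox, then 20.5, 20.2 and 22.5 in L-iAMPK HFD, then 11.9, 12.8 and 14.1 in L-iAMPK HFD+dox. The L-iAMPK HFD+dox libraries were the 3 lowest of the 12, and those of L-iAMPK HFD were the 3 highest. Pros1 fell by 0.68 ± 0.09 on the log2 scale with doxycycline in L-iAMPK livers (limma adjusted p = 0.000794). It was lower than in iAMPK HFD+dox, at -0.46 ± 0.09 (limma adjusted p = 0.00804), and the response differed between genotypes by -0.72 ± 0.13 (limma adjusted p = 0.0105). These 3 calls held under all alternatives run. Serpinc1, which encodes antithrombin (chr1:160978606-161003014), measured 771, 721 and 793 FPKM in iAMPK HFD, 786, 750.1 and 737 in iAMPK HFD+dox, then 673, 667 and 739.8 in L-iAMPK HFD, then 849, 860.4 and 853 in L-iAMPK HFD+dox. Its pattern was that of F2, with L-iAMPK HFD+dox highest and L-iAMPK HFD lowest on average. Serpinc1 rose by 0.30 ± 0.07 (limma adjusted p = 0.0140) and differed by 0.17 ± 0.07 (limma adjusted p = 0.139) from iAMPK HFD+dox. The call ended after quantile normalization (adjusted p = 0.521), with only the compared libraries fitted (0.0509) and without replicates 1 and 2 of L-iAMPK HFD (0.0525 and 0.0563), and the difference after quantile normalization was 0.07. Serpind1, which encodes heparin cofactor II (chr16:17331371-17343572), measured 285, 258 and 245 FPKM in iAMPK HFD, 284, 266 and 254 in iAMPK HFD+dox, then 196, 199 and 206 in L-iAMPK HFD, then 234, 250.5 and 276 in L-iAMPK HFD+dox. The L-iAMPK HFD libraries were the 3 lowest, and L-iAMPK HFD+dox overlapped both iAMPK groups. Serpind1 rose by 0.34 ± 0.08 (limma adjusted p = 0.0150). The call ended without replicate 1 of L-iAMPK HFD (adjusted p = 0.0531) and without replicate 3 of L-iAMPK HFD+dox (0.0587). Serpind1 lies wholly within Pi4ka on the opposite strand, and no label says that counting used the strand. Proc (protein C) differed by 0.14 ± 0.10, Proz (protein Z) by 0.12 ± 0.09, Hrg (histidine-rich glycoprotein) by 0.06 ± 0.17 and Tfpi (tissue factor pathway inhibitor, which endothelium also makes) by -0.35 ± 0.14, and none passed. Tfpi was the lowest of the 41 genes, with group means of 2.10 to 2.78 FPKM.

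In fibrinolysis, plasminogen and 1 of its brakes rose with doxycycline in L-iAMPK livers. Plg, which encodes plasminogen (chr17:12378609-12419384), measured 942, 817 and 838 FPKM in iAMPK HFD, 929.9, 754 and 774 in iAMPK HFD+dox, then 599.7, 586 and 733 in L-iAMPK HFD, then 813, 839 and 891 in L-iAMPK HFD+dox. L-iAMPK HFD was below every other library, and L-iAMPK HFD+dox fell within the range of the iAMPK livers. Plg rose by 0.41 ± 0.11 (limma adjusted p = 0.0218) and differed by 0.05 ± 0.11 from iAMPK HFD+dox. The call ended after quantile normalization (adjusted p = 0.0886), without replicates 1 and 2 of L-iAMPK HFD (0.0786 and 0.0837) and without replicates 2 and 3 of L-iAMPK HFD+dox (0.0546 and 0.0716), and the difference after quantile normalization was 0.19. Cpb2, which encodes the carboxypeptidase TAFI that protects fibrin from plasmin (chr14:75242287-75283553), measured 161, 166 and 172 FPKM in iAMPK HFD, 158, 173 and 181 in iAMPK HFD+dox, then 132, 153 and 159.6 in L-iAMPK HFD, then 165, 193 and 204 in L-iAMPK HFD+dox. L-iAMPK HFD+dox lay above L-iAMPK HFD and overlapped the iAMPK groups. Cpb2 rose by 0.33 ± 0.10 (limma adjusted p = 0.0298). The call ended with only the compared libraries fitted (adjusted p = 0.0744), without replicates 1 and 2 of L-iAMPK HFD (0.116 and 0.0586) and without replicates 2 and 3 of L-iAMPK HFD+dox (0.0872 and 0.104). Serpinf2, which encodes the plasmin inhibitor α2-antiplasmin (chr11:75431736-75439501), measured 343, 303 and 313 FPKM in iAMPK HFD, 361, 285 and 298 in iAMPK HFD+dox, then 205, 189.5 and 242 in L-iAMPK HFD, then 226, 242 and 246 in L-iAMPK HFD+dox. All 6 L-iAMPK libraries lay below all 6 iAMPK libraries. Serpinf2 was lower, at -0.39 ± 0.11 (limma adjusted p = 0.0362), than in iAMPK HFD+dox, and doxycycline in L-iAMPK livers gave 0.17 ± 0.11 (limma adjusted p = 0.273). The first call ended after median-ratio scaling (adjusted p = 0.159), with no filter (0.0518), with only the compared libraries fitted (0.0526), in edgeR (0.120), without replicates 1 and 3 of iAMPK HFD+dox (0.0830 and 0.0649) and without replicates 1, 2 and 3 of L-iAMPK HFD+dox (0.112, 0.0784 and 0.0694). Vtn (vitronectin, an adhesive plasma protein) differed by 0.28 ± 0.11 (limma adjusted p = 0.0892).

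In complement, C3 and factor B rose with doxycycline in L-iAMPK livers. C3, the component on which all pathways converge (chr17:57203967-57228136), measured 1074, 959 and 1082 FPKM in iAMPK HFD, 1047, 1033 and 1183 in iAMPK HFD+dox, then 901, 741 and 979 in L-iAMPK HFD, then 1136, 1146 and 1471 in L-iAMPK HFD+dox. L-iAMPK HFD+dox was above both groups without doxycycline, and it overlapped iAMPK HFD+dox. C3 rose by 0.52 ± 0.13 (limma adjusted p = 0.0153) and differed by 0.19 ± 0.13 (limma adjusted p = 0.330) from iAMPK HFD+dox. The call ended after quantile normalization (adjusted p = 0.0907), without replicate 2 of L-iAMPK HFD (0.0622) and without replicate 3 of L-iAMPK HFD+dox (0.0561), and the difference after quantile normalization was 0.26. Cfb, which encodes factor B, the protease of the alternative pathway convertase (chr17:34856374-34862514), measured 360.2, 355 and 335 FPKM in iAMPK HFD, 372, 361 and 411 in iAMPK HFD+dox, then 341, 341 and 321 in L-iAMPK HFD, then 408, 426 and 430.3 in L-iAMPK HFD+dox. L-iAMPK HFD+dox held the highest libraries apart from iAMPK HFD+dox replicate 3, which lay between them. Cfb rose by 0.34 ± 0.07 (limma adjusted p = 0.00853) and differed by 0.15 ± 0.07 (limma adjusted p = 0.195) from iAMPK HFD+dox. The call ended after quantile normalization (adjusted p = 0.0556). Cfi, which encodes the protease that inactivates C3b and C4b, differed by 0.20 ± 0.08 (limma adjusted p = 0.0755).

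Of the lectin and classical pathways, a mannose-binding lectin and C1 inhibitor rose, as did the short Masp2 transcript given in FPKM. Mbl2, which encodes mannose-binding lectin C (chr19:30232957-30239682), measured 307, 232 and 293 FPKM in iAMPK HFD, 326, 324 and 335 in iAMPK HFD+dox, then 253, 175 and 240.3 in L-iAMPK HFD, then 505, 364 and 435 in L-iAMPK HFD+dox. L-iAMPK HFD+dox lay above all other libraries, and iAMPK HFD+dox was above iAMPK HFD without overlap. Mbl2 rose by 0.97 ± 0.16 (limma adjusted p = 0.00233), a 1.96-fold increase that held under all alternatives run, and differed by 0.39 ± 0.16 (limma adjusted p = 0.118) from iAMPK HFD+dox and by 0.25 ± 0.16 (limma adjusted p = 0.830) between the iAMPK groups. Mbl1, which encodes mannose-binding lectin A, differed by 0.13 ± 0.10 (limma adjusted p = 0.366), and whether the 2 lectins differed in response was not tested. Masp2, whose gene encodes the protease MASP-2 that cleaves C4 and C2, measured 163, 152 and 153 FPKM in iAMPK HFD, 162, 156 and 148 in iAMPK HFD+dox, then 150.2, 140.1 and 167 in L-iAMPK HFD, then 202, 179.7 and 203 in L-iAMPK HFD+dox for the deposited transcript (chr4:148602544-148604413). L-iAMPK HFD+dox was above all other libraries. Masp2 rose by 0.35 ± 0.08 (limma adjusted p = 0.0115) and was higher by 0.33 ± 0.08 (limma adjusted p = 0.0234) than in iAMPK HFD+dox. The latter did not pass without replicates 2 and 3 of iAMPK HFD+dox (adjusted p = 0.0706 and 0.0831) and without replicates 1 and 3 of L-iAMPK HFD+dox (0.0792 and 0.0779). The read counts hold another Masp2 transcript, for which edgeR gave 0.065 (adjusted p = 0.648) and -0.046 (adjusted p = 0.824), so both calls rest on the transcript of the FPKM table. The FPKM transcript is only 737 bases long. Whether it encodes the whole protease is not stated by the labels, so no rise of the protease mRNA can be read from it. Serping1, which encodes the C1 inhibitor that also restrains kallikrein (chr2:84765360-84775429), measured 413, 387 and 427 FPKM in iAMPK HFD, 427, 398 and 425 in iAMPK HFD+dox, then 288, 282 and 382 in L-iAMPK HFD, then 408, 383 and 423 in L-iAMPK HFD+dox. L-iAMPK HFD+dox lay above L-iAMPK HFD by a small gap and overlapped both iAMPK groups. Serping1 rose by 0.36 ± 0.11 (limma adjusted p = 0.0318). The call ended with only the compared libraries fitted (adjusted p = 0.0854), without replicates 1 and 2 of L-iAMPK HFD (0.116 and 0.121) and without replicates 1, 2 and 3 of L-iAMPK HFD+dox (0.0794, 0.0527 and 0.0941).

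Other classical pathway genes followed genotype or did not pass. C2, which encodes the protease of the classical convertase (chr17:34862602-34882100, 87 bases from Cfb), measured 38.7, 33.6 and 29.0 FPKM in iAMPK HFD, 35.8, 30.6 and 33.3 in iAMPK HFD+dox, then 46.2, 42.8 and 47.9 in L-iAMPK HFD, then 48.2, 44.2 and 45.9 in L-iAMPK HFD+dox. All 6 L-iAMPK libraries lay above all 6 iAMPK libraries, and the L-iAMPK groups overlapped. C2 was higher by 0.47 ± 0.10 (limma adjusted p = 0.0113) than in iAMPK HFD+dox, while doxycycline in L-iAMPK livers gave 0.01 ± 0.10 (limma adjusted p = 0.932). The first call ended without replicate 2 of iAMPK HFD+dox (adjusted p = 0.0521). C4bp, which encodes the α chain of C4b-binding protein, a carrier of protein S in humans (chr1:130635921-130661618), measured 301, 306 and 284 FPKM in iAMPK HFD, 320.4, 301 and 303 in iAMPK HFD+dox, then 228, 240.4 and 258 in L-iAMPK HFD, then 248, 244 and 276 in L-iAMPK HFD+dox. The 6 L-iAMPK libraries were the 6 lowest. C4bp was lower, at -0.27 ± 0.08 (limma adjusted p = 0.0378), than in iAMPK HFD+dox and differed by 0.08 ± 0.08 (limma adjusted p = 0.463) from L-iAMPK HFD. The first call ended after median-ratio scaling (adjusted p = 0.235), after quantile normalization (0.129), with only the compared libraries fitted (0.0690), in edgeR (0.259), without replicates 1 and 2 of iAMPK HFD (0.0513 and 0.0514), without replicates 1, 2 and 3 of iAMPK HFD+dox (0.0778, 0.0841 and 0.0830), without replicate 2 of L-iAMPK HFD (0.0536) and without replicates 1 and 2 of L-iAMPK HFD+dox (0.112 and 0.117). C4b, the component cleaved by C1s and MASP-2 (chr17:34728381-34743897), measured 209, 215 and 228 FPKM in iAMPK HFD, 235, 213 and 236 in iAMPK HFD+dox, then 212, 226 and 179 in L-iAMPK HFD, then 186, 233 and 257 in L-iAMPK HFD+dox. The 4 groups overlapped. C4b differed by 0.12 ± 0.12 (limma adjusted p = 0.475) with doxycycline in L-iAMPK livers, and its reads may be shared with the near copy C4a, so its level is uncertain. Masp1 (MASP-1 and MASP-3) differed by 0.06 ± 0.10 (limma adjusted p = 0.680).

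The terminal pathway varied widely between libraries of 1 group, and none of its 6 genes passed with doxycycline in L-iAMPK livers. Hc, which encodes C5 (chr2:34983331-35061441), measured 198, 179 and 156 FPKM in iAMPK HFD, 203, 160.0 and 165 in iAMPK HFD+dox, then 129, 126 and 112 in L-iAMPK HFD, then 141, 139.6 and 165 in L-iAMPK HFD+dox. L-iAMPK HFD was the lowest group, with no overlap. Hc differed by 0.28 ± 0.12 (limma adjusted p = 0.105) with doxycycline in L-iAMPK livers. C8a, which encodes the α chain of C8 (chr4:104815680-104876398), measured 274, 206 and 118 FPKM in iAMPK HFD, 225, 121 and 137 in iAMPK HFD+dox, then 62.6, 50.9 and 63.2 in L-iAMPK HFD, then 57.4, 23.8 and 56.1 in L-iAMPK HFD+dox. The 6 L-iAMPK libraries were the 6 lowest, and L-iAMPK HFD+dox replicate 2 was the lowest of all. C8a was lower, at -1.86 ± 0.39 (limma adjusted p = 0.0135), than in iAMPK HFD+dox, a call that held under all alternatives run, and differed by -0.46 ± 0.39 (limma adjusted p = 0.415) from L-iAMPK HFD. C8b, the neighbouring gene of the β chain (chr4:104766317-104804548, 11.1 kb away), measured 118, 79.6 and 42.9 FPKM in iAMPK HFD, 84.6, 30.3 and 35.4 in iAMPK HFD+dox, then 19.1, 19.2 and 30.0 in L-iAMPK HFD, then 83.3, 35.6 and 67.5 in L-iAMPK HFD+dox. L-iAMPK HFD was the lowest group, and L-iAMPK HFD+dox overlapped both iAMPK groups. C8b differed by 1.38 ± 0.48 (limma adjusted p = 0.0581) with doxycycline in L-iAMPK livers. For another C8b transcript, that of the read counts, edgeR gave 1.62 with an adjusted p of 0.0498. The ratio of C8b to C8a was 0.251 to 0.474 in 9 libraries and 1.20 to 1.50 in the 3 of L-iAMPK HFD+dox. This ratio, in FPKM, was chosen after its values were seen and was not tested. C6 differed by 1.06 ± 0.43 (limma adjusted p = 0.0969), C8g (the γ chain of C8) by 0.28 ± 0.14 (limma adjusted p = 0.168) and C9, the pore-forming component, by 0.02 ± 0.27 (limma adjusted p = 0.966). C8g overlaps Fbxw5 on the opposite strand by 942 bases. Replicate 1 was the highest library of iAMPK HFD for C6, C8a, C8b, C9 and F11: C6 measured 77.9, 51.5 and 22.7 FPKM there, and C9 measured 255.4, 184.6 and 169.0. In iAMPK HFD+dox, replicate 1 was likewise the highest for C6, C8a, C8b and F11.

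**Figure D4:**
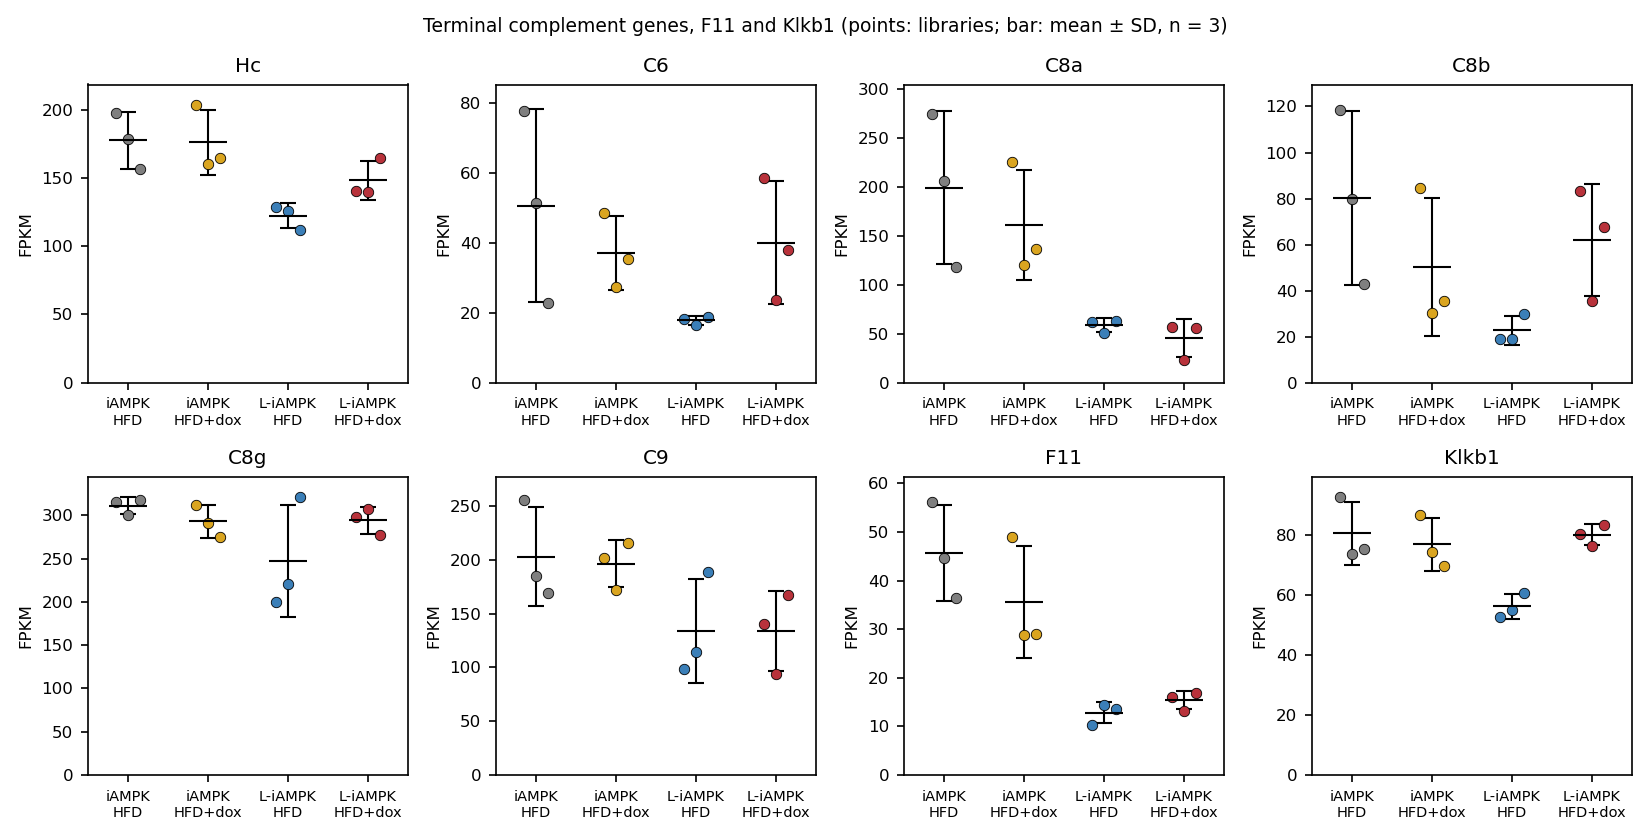
FPKM (y axis) of the 6 terminal pathway genes, F11 and Klkb1 in each library of the 4 groups (x axis); points are libraries and bars are mean ± SD, n = 3. C8a and F11 are low in both L-iAMPK groups, while C6, C8b and Klkb1 have their lowest group mean in L-iAMPK HFD.

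No member passed for doxycycline in iAMPK livers, which is labelled as without AMPK activation. There 0% of all genes tested were called by limma, and 0 of the 41 members were called. At an unadjusted p under 0.05 there were 786 genes and 0 members, and edgeR called 0 genes. The lowest adjusted p of a member was 0.811, for Tfpi. The median log2 difference was -0.02 for coagulation, -0.01 for complement and 0.02 for all genes. The interaction, which compares the doxycycline response of L-iAMPK with that of iAMPK livers, was called higher for 4 coagulation genes (Fga, Fgb, Fgg and Klkb1), against 2.01% of all genes, and lower for 1 (Pros1), against 11.2% (13.2% in either direction). No complement gene passed in limma or in edgeR, and 5 had an unadjusted p under 0.05 in limma (Masp2, Mbl2, C8b, C6 and C3). After median-ratio scaling 9 coagulation and 4 complement genes were called higher. Without L-iAMPK HFD replicate 3 the counts were likewise 9 and 4. All genes called in either direction numbered 527 to 2803 with 1 library left out, in place of 1663. Complement genes called numbered 2 without iAMPK HFD replicate 3 or iAMPK HFD+dox replicate 1, and 2 coagulation genes were called lower without replicate 3 of L-iAMPK HFD+dox.

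The genotypes also differed without doxycycline. L-iAMPK HFD was lower than iAMPK HFD for 4 coagulation genes (F11, Klkb1, Serpind1 and Serpinf2) and 2 complement genes (Hc and C8a) and higher for 1 complement gene (C2), against 1.27% of all genes lower and 3.04% higher (4.31% in either direction). The median log2 difference was -0.17 for coagulation and -0.34 for complement, against 0.08 for all genes. Of the 41 differences 37 were below 0, against 4284 of the 12614 genes tested. The differences of most markers of endothelium, macrophages, stellate cells and cholangiocytes were above 0 in the same comparison, as given with the marker lists. This comparison and that of doxycycline in L-iAMPK livers share the L-iAMPK HFD libraries, which enter them with opposite sign. Klkb1 was lower, at -0.51 ± 0.11 (limma adjusted p = 0.0273), and the call ended with only the compared libraries fitted (adjusted p = 0.0617), without replicate 1 of iAMPK HFD (0.102) and without replicates 1 and 2 of L-iAMPK HFD (0.116 and 0.107). Serpind1 was lower, at -0.39 ± 0.08 (limma adjusted p = 0.0327), and the call ended with only the compared libraries fitted (adjusted p = 0.0681), without replicates 1 and 2 of iAMPK HFD (0.128 and 0.0646), without replicate 2 of iAMPK HFD+dox (0.0546), without replicates 1 and 2 of L-iAMPK HFD (0.122 and 0.116) and without replicate 2 of L-iAMPK HFD+dox (0.0504). Serpinf2 was lower, at -0.59 ± 0.11 (limma adjusted p = 0.0196), and the call ended with only the compared libraries fitted (adjusted p = 0.0513), without replicate 1 of iAMPK HFD (0.0893) and without replicates 1 and 2 of L-iAMPK HFD (0.0833 and 0.0922). In each of these 3 genes the removal of a single library could end the call, whereas the F11 call held under all alternatives run. Hc was lower, at -0.53 ± 0.12 (limma adjusted p = 0.0350), and the call ended with no filter (adjusted p = 0.0505), with only the compared libraries fitted (0.0575), without replicates 1 and 2 of iAMPK HFD (0.133 and 0.0745), without replicates 1 and 2 of L-iAMPK HFD (0.0937 and 0.107) and without replicate 2 of L-iAMPK HFD+dox (0.0504). C8a was lower, at -1.68 ± 0.39 (limma adjusted p = 0.0464), and the call ended with no filter (adjusted p = 0.0570), with only the compared libraries fitted (0.0507), without replicates 1 and 2 of iAMPK HFD (0.152 and 0.0959), without replicate 2 of iAMPK HFD+dox (0.0613), without replicates 1 and 2 of L-iAMPK HFD (0.133 and 0.150) and without replicates 1 and 3 of L-iAMPK HFD+dox (0.0532 and 0.0598). C2 was higher by 0.44 ± 0.10 (limma adjusted p = 0.0368), and the call ended after median-ratio scaling (adjusted p = 0.0982), with no filter (0.0540), with only the compared libraries fitted (0.0808), in edgeR (0.103), without replicates 2 and 3 of iAMPK HFD (0.0763 and 0.0870), without replicate 2 of iAMPK HFD+dox (0.0511), without replicates 1 and 2 of L-iAMPK HFD (0.132 and 0.0938) and without replicates 2 and 3 of L-iAMPK HFD+dox (0.0522 and 0.0575). Without L-iAMPK HFD replicate 3, the counts of lower genes were 8 for coagulation and 7 for complement, and without replicate 1 or 2 of L-iAMPK HFD or replicate 1 of iAMPK HFD they were 1 and 0. All genes called in either direction moved too, from 544 to 1444 without L-iAMPK HFD replicate 3 and to 38 without its replicate 1. Lower complement genes numbered 0 without iAMPK HFD replicate 2, 4 without its replicate 3 and 5 without iAMPK HFD+dox replicate 1. In L-iAMPK HFD, replicate 3 was the highest library for Hrg (505.2 against 299.6 and 314.6 FPKM), Vtn (889.8 against 682.4 and 661.0), Serping1, C8g and C9.

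**Figure D5:**
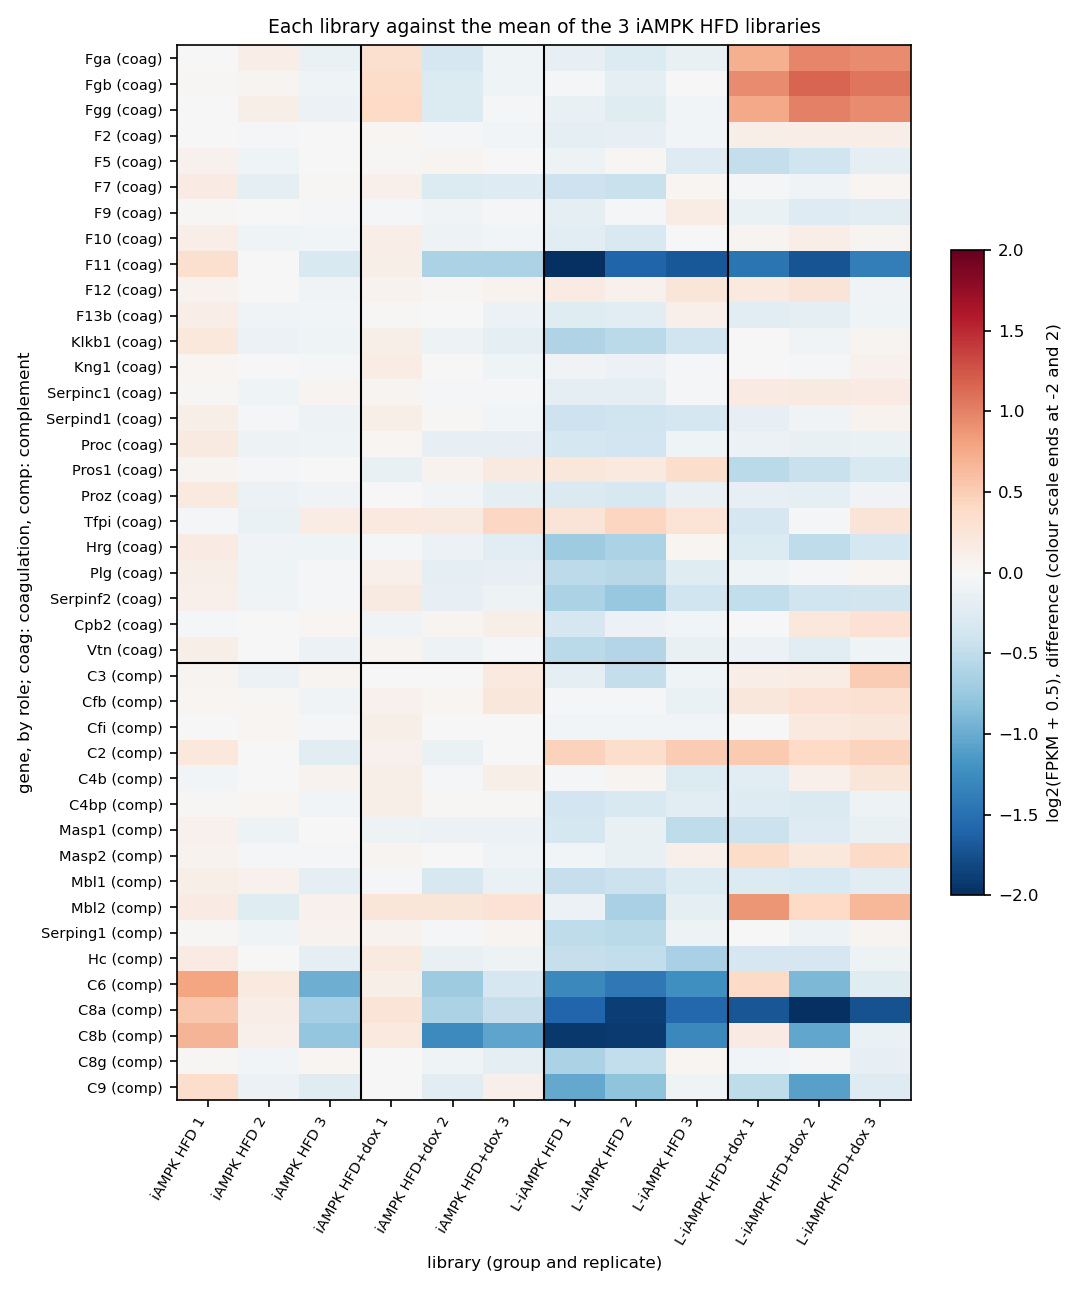
Log2(FPKM + 0.5) of the 41 genes (y axis) in the 12 libraries (x axis), as the difference from the mean of the 3 iAMPK HFD libraries (colour, ending at -2 and 2). Fga, Fgb, Fgg and Mbl2 are raised in the 3 L-iAMPK HFD+dox libraries, F11 and C8a are low in all 6 L-iAMPK libraries, and Klkb1, Plg and Serpind1 are low in L-iAMPK HFD.

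Genes that act with these proteins gave mixed counts. Of 19 further coagulation and fibrinolysis genes tested, 2 rose and 5 fell with doxycycline in L-iAMPK livers, with a median log2 difference of -0.45. The share that fell, 26.3%, was near the 21.1% of all genes tested. Vwf, von Willebrand factor of endothelium, fell by 0.80 ± 0.18 (limma adjusted p = 0.0102), and Mst1 fell by 0.35 ± 0.07 (limma adjusted p = 0.00585). Apoh, the plasma protein β2-glycoprotein I, rose by 0.43 ± 0.11 (limma adjusted p = 0.0175). Of 8 genes of the vitamin K cycle and of factor secretion, 2 rose and 2 fell (25.0% each), against 4.76% and 21.1% of all genes. Vkorc1, the reductase that recycles vitamin K for the γ-carboxylation of clotting factors, rose by 0.33 ± 0.08 (limma adjusted p = 0.0145), and Lman1, a cargo receptor for factors V and VIII, rose by 0.33 ± 0.10 (limma adjusted p = 0.0297). Nqo1 fell by 1.27 ± 0.24 (limma adjusted p = 0.00544) and Pcsk6 fell by 0.46 ± 0.08 (limma adjusted p = 0.00241). Of 26 further complement genes, 1 rose and 2 fell (3.85% and 7.69%), with a median of -0.12. Cpn1, the catalytic chain of the carboxypeptidase that trims the anaphylatoxins, fell by 0.45 ± 0.06 (limma adjusted p = 0.000739), and C3ar1, the receptor for C3a, fell by 0.74 ± 0.23 (limma adjusted p = 0.0360).

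Of 27 other plasma proteins of hepatocytes tested, 10 rose and 0 fell with a median of 0.16, against 4.76% of all genes higher and 21.1% lower. The 4 with the smallest p were Itih1 (0.50), Itih2 (0.55), Itih4 (0.67) and Apoa2 (0.41), the first 3 of them heavy chains of the inter-α-trypsin inhibitor family. Of 12 genes of IL-6 signalling and the acute phase, 1 rose and 4 fell (8.33% and 33.3%), with a median of -0.41. Saa1 and Saa2, the acute phase serum amyloids, fell by 2.26 ± 0.51 (limma adjusted p = 0.0115) and 2.79 ± 0.59 (limma adjusted p = 0.00946), and Lcn2 fell by 3.71 ± 0.75 (limma adjusted p = 0.00776). Fibrinogen and the genes Saa1, Saa2 and Lcn2 moved in opposite directions in the same livers, while 7 of the 12 listed genes did not pass. Of 11 hepatocyte transcription factors tested, 3 rose and 1 fell (27.3% and 9.09%). Onecut1 rose by 1.77 ± 0.43 (limma adjusted p = 0.0158), Cebpa rose by 0.38 ± 0.10 (limma adjusted p = 0.0215), Foxa2 rose by 0.66 ± 0.19 (limma adjusted p = 0.0278), and Ppara fell by 0.41 ± 0.12 (limma adjusted p = 0.0254).

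In the same comparison, 4.76% of all genes tested rose and 21.1% fell. Markers of sinusoidal endothelium and of stellate cells and fibroblasts fell more often than this, while those of macrophages and cholangiocytes did not. Of 10 hepatocyte markers, 1 rose (Ttr) and 1 fell (Tdo2), and their summed level was 49297 to 52625 FPKM without and 40874 to 49071 FPKM with doxycycline. Of 10 markers of sinusoidal endothelium, 6 fell, and they summed to 159.8 to 170.3 FPKM without and 125 to 148 FPKM with doxycycline. Of 10 markers of stellate cells and fibroblasts, 7 fell, and they summed to 218 to 283 FPKM without and 144 to 180.0 FPKM with doxycycline. Of 10 markers of macrophages and Kupffer cells, 1 fell, and they summed to 218 to 263 FPKM without and 127 to 252 FPKM with doxycycline. Of 5 cholangiocyte markers, 1 fell, and they summed to 38.0 to 153 FPKM without and 17.6 to 22.5 FPKM with doxycycline. Each of these lists was detected in every library, hepatocyte markers were the highest by far, and the part of cell makeup in the differences of the 41 genes was not tested. Without doxycycline, L-iAMPK HFD was set against iAMPK HFD in these lists, where 4.31% of all genes tested passed. Only the endothelial list held a marker that passed. The log2 differences were above 0 for 10 of 10 macrophage markers (median 0.78, 0 passed) and 10 of 10 stellate cell markers (median 0.39, 0 passed). They were also above 0 for 8 of 10 endothelial markers (median 0.24, 1 passed) and 5 of 5 cholangiocyte markers (median 0.60, 0 passed). For 9 of 10 hepatocyte markers they were below 0 (median -0.33, 0 passed). Of the 12614 genes tested, 8330 were above 0 and 4284 below 0 in that comparison, with a median of 0.08. In iAMPK HFD the macrophage markers summed to 127 to 181 FPKM, below L-iAMPK HFD without overlap, the stellate cell markers to 175 to 227, the endothelial markers to 128 to 162, the cholangiocyte markers to 28.8 to 63.3 and the hepatocyte markers to 47442 to 54428, all 4 overlapping L-iAMPK HFD. Macrophage markers in iAMPK HFD+dox summed to 163 to 340 FPKM, overlapping both groups without doxycycline. Between the iAMPK groups, 10 of 10 macrophage markers were higher with doxycycline (median 0.59, 0 passed), as were 7201 of the 12614 genes. The part of cell makeup in the genotype differences was not tested either. Of the platelet markers 2 of 6 were tested, of the neutrophil markers 3 of 5, of the lymphocyte markers 2 of 5 and of the erythroid markers 4 of 4, and none passed. Their sums in L-iAMPK HFD+dox were 1.46 to 2.63, 1.93 to 3.97, 1.21 to 3.20 and 135 to 169 FPKM, against 2.25 to 3.94, 3.04 to 8.57, 1.48 to 2.06 and 102 to 198 in L-iAMPK HFD. Gp9, Gp1bb, Gp6, Ngp, Retnlg and Ly6g were at 0 in at least 1 library.

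The authors' deposited table, made with their own comparisons and read here at an adjusted p under 0.05, called 11 coagulation genes higher and 1 lower and 7 complement genes higher and 0 lower in L-iAMPK HFD+dox against L-iAMPK HFD. Beside the genes named above, it called F10, Vtn, Hc, C6 and C8b higher, and it did not call Masp2. Against iAMPK HFD and against iAMPK HFD+dox, the authors' deposited table called Fga, Fgb, Fgg, C2 and Mbl2 higher and F11 and C8a lower. The share of all genes that the authors' comparisons called was not counted, so these member counts have no background beside them.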

How the data were processed

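Polyadenylated RNA of 12 mouse liver samples was sequenced from stranded libraries, 3 in each of 4 groups. Per the file headers, the authors deposited FPKM with 0.5 added to each value, which was subtracted here. A second table holds tag signal values scaled by the authors per library, beside the log2 ratios and p-values, raw and adjusted, that the authors deposited for their own comparisons. FastQC, STAR 2.4.0k, HOMER, edgeR 3.6.8 and the build mm10 appear in the submitters' processing notes, without a stated role. Whether reads were counted by strand is unknown from the labels.

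Genes were matched by symbol. Genes with at least 0.5 FPKM in at least 3 libraries (12614) were tested with limma 3.58.1 (R 4.3.3) on log2(FPKM + 0.5), with 4 group means, trended and robust empirical Bayes moderation and Benjamini-Hochberg adjustment at 0.05. The tested differences were the effect of doxycycline in each genotype, the genotypes with and without doxycycline, and the interaction. Whole reads were recovered from the scaled tags of 11 libraries within 0.02 of a whole number (100% of values) and tested with edgeR 4.0.16 quasi-likelihood on 13773 genes, as an alternative that called 2992 genes for doxycycline in L-iAMPK livers. The reads of iAMPK HFD+dox replicate 2 were not used in that fit. For 12 of the 41 genes the tags belong to another transcript than the FPKM. They are Fga, Fgb, Fgg, F10, F11, Kng1, Proc, Tfpi, Masp2, C8a, C8b and C8g. Depth was 13569437 to 20696899 reads per library, which limits precision through counting error.

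Further alternatives changed the scale (median-ratio or quantile), the pseudocount (0.1 or 1), the filter (none or 2 FPKM) or the fit (array weights, replicate number as a block, neither trend nor robust step, or the compared groups alone), or left out each library in turn. The tests were tested on simulated data with known changes. The 41 genes and the further lists were chosen with earlier results of these data known. Per-library values were given for genes called in the 2 comparisons with L-iAMPK HFD+dox or in the interaction and for a fixed set of central genes, and up to 4 genes of each further list with the smallest p were named. Some genes of these lists are counted but not reported here by name. C8b was added after its values were seen. Promoter windows came from RefSeq (GRCm38.p6).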

Additional observations from a re-analysis of the deposited data

Results flagged for a closer look

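For 5 genes the response to doxycycline differed between the genotypes in the interaction test of limma. The response in L-iAMPK livers minus that in iAMPK livers was 1.11 ± 0.21 (adjusted p = 0.0126) for Fga, 1.13 ± 0.20 (adjusted p = 0.0106) for Fgb and 1.02 ± 0.21 (adjusted p = 0.0161) for Fgg on the log2 scale. It was 0.57 ± 0.15 (adjusted p = 0.0322) for Klkb1 and -0.72 ± 0.13 (adjusted p = 0.0105) for Pros1. In iAMPK livers the log2 differences with doxycycline were -0.04 for Fga, 0.00 for Fgb, 0.03 for Fgg, -0.06 for Klkb1 and 0.04 for Pros1. Groups of 3 libraries are too small for a test of outlying values. When each library was left out in turn, the Klkb1 call was lost in 8 fits and those of Fga, Fgb, Fgg and Pros1 in none.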

How the results depend on the processing

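Of 38 calls of single genes, 16 held under all alternatives run, among them those of the fibrinogen chains in both comparisons with L-iAMPK HFD+dox. The Masp2 difference against iAMPK HFD+dox turned to -0.046 in edgeR, which counted another transcript. The cause of the other changes was not tested. Depth limits low genes such as Tfpi most.

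Array weights called 5390 genes, 14 higher and 2 lower coagulation genes and 10 higher complement genes for doxycycline in L-iAMPK livers. They called 4819 genes, 5 higher coagulation and 6 higher complement genes for the genotypes on doxycycline, and 3 genes for doxycycline in iAMPK livers. Without doxycycline they called 3078 genes, 1 higher and 12 lower coagulation genes and 9 lower complement genes, and in the interaction 4673 genes, 15 higher and 2 lower coagulation genes and 10 higher complement genes. Median-ratio scaling gave 8 higher complement genes for doxycycline in L-iAMPK livers, 2 lower coagulation genes and 1 lower complement gene for the genotypes on doxycycline, 0 higher and 5 lower complement genes without it, and 9 coagulation and 4 complement genes higher in the interaction. Quantile normalization gave 1 lower complement gene for the genotypes on doxycycline and 1 higher one in the interaction.

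In edgeR the genotypes on doxycycline gave 1083 genes, 2 lower coagulation genes and 1 complement gene in each direction, those without it 358 genes and 0 higher complement genes, and the interaction 736 genes. The coagulation median minus the complement median for doxycycline in L-iAMPK livers was 0.034 in edgeR and -0.027 in limma. With only the compared libraries, 1 complement gene was lower on doxycycline, and without it 300 genes, 1 lower coagulation gene and 0 complement genes in either direction were called. Without doxycycline, no filter gave 0 complement genes in either direction, and the filter at 2 FPKM gave 4 lower ones.

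Equal replicate numbers did not clearly pair the libraries. The correlations of 18 such pairs ran from -0.28 to 0.45, with 8 over 0.1, and 6 of 12 libraries matched their own number best. For replicate 1 the correlations were 0.45, 0.31 and 0.28 among iAMPK HFD, iAMPK HFD+dox and L-iAMPK HFD+dox, and below 0 with L-iAMPK HFD. This check cannot decide whether the numbers mark pairs or a batch. The replicate block gave 1 lower complement gene for the genotypes on doxycycline and 1 higher one in the interaction. Of the 38 calls it ended that of C4bp on doxycycline (limma adjusted p = 0.0633) and that of Serpind1 without it (0.0566).

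Leaving out each library gave 1874 to 3738 genes, 4 to 12 higher and 1 to 3 lower coagulation genes and 3 to 7 higher complement genes for doxycycline in L-iAMPK livers. The genotypes on doxycycline gave 908 to 2442 genes, 2 to 4 lower coagulation genes, and 0 to 2 higher and 1 to 2 lower complement genes. Doxycycline in iAMPK livers gave 0 to 1 genes. The genotypes without doxycycline gave 38 to 1444 genes, 1 to 8 lower coagulation genes, and 0 to 1 higher and 0 to 7 lower complement genes. The interaction gave 527 to 2803 genes, 3 to 9 higher and 1 to 2 lower coagulation genes and 0 to 4 higher complement genes. The difference of the medians ran from -0.04 to 0.02.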
